A study of Mus musculus with 6 samples.

Results

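The cells described here were 497 of 24488 kept droplet barcodes (2.03%) from mouse collecting lymphatic vessels and the tissue around them, chosen for transcripts of the monocyte genes Ly6c2, Ms4a4c and Plac8. A barcode was kept when 500 or more genes were detected in it and mitochondrial transcripts made up no more than 10% of its UMIs (unique molecular identifiers, which count captured transcripts). A selected cell had at least 2 UMIs of Ly6c2, Ms4a4c and Plac8 together and at least 2 of the myeloid genes Lyz2 and Ctss. It also had at most 2 UMIs of the macrophage complement genes C1qa, C1qb and C1qc, none of Trem2, Cd3e or Cd79a, and at most 10 of the neutrophil genes S100a8 and S100a9. They were set against 5324 C1q-positive macrophages (at least 3 UMIs of the C1q genes and 2 of Lyz2 and Ctss) and 18667 other kept barcodes. Because measured counts chose the cells, every difference in level between them and other cells is a description without a test.

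The study took the dermal collecting vessels between the inguinal and axillary nodes of C57BL/6 mice, after Evans Blue dye in the inguinal node had made them visible. Each of 3 ages, young (6 weeks), middle-aged (12 months) and aged (18 months), had 1 library labelled male and 1 labelled female, which makes 6 droplet libraries in all. Collagenase, elastase and dispase released the cells, and red cells were lysed. The aged mice came from the National Institute on Aging, so age and supplier cannot be told apart. All mice were given ketamine and xylazine anaesthesia, and no genotype or treatment is labelled as differing between the groups. The number of mice behind a library is not given in the sources used here, so no p-value measures the spread between mice, and each rests on these few libraries.

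The libraries held between 9616652 and 28921825 UMIs, and 999 to 8228 barcodes were kept in each. The middle-aged pair went against its sex labels, since Xist stood at 1402 CPM (counts scaled to equal library totals) in the library labelled male and at 0.255 CPM in the one labelled female, while Y-linked genes summed to 0.106 and 265 CPM. The labels were kept as given. Pairs of libraries shared 0 to 12 kept barcodes, and no selected cell had its barcode selected in another library.

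Ly6C-high monocytes leave the bone marrow by way of the chemokine receptor CCR2 and enter tissues, where they can become macrophages or cells resembling dendritic cells. A second, patrolling kind with little Ly6C depends on the nuclear receptor NR4A1 and moves along the vessel lumen. Ly6c2 codes for the Ly6C antigen, Ms4a4c for a membrane protein of the MS4A family, and Plac8 for a small cysteine-rich protein.

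The promoters of these 3 genes, as RefSeq gives them for GRCm38.p6 (250 bases before to 50 after the start, on the gene's strand), are shown because the genes differed in which other cells held them. Capitals mark GGAAGT, the core bound by PU.1 and related ETS factors, searched on both strands (ACTTCC on the other).
Ly6c2, chr15:75111922-75112221, minus strand: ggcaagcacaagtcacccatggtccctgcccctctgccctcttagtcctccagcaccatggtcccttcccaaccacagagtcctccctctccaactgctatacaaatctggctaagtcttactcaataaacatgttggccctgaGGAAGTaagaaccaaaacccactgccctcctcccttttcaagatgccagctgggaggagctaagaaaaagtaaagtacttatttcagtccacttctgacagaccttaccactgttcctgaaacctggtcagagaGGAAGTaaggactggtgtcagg
Ms4a4c, chr19:11407411-11407710, plus strand: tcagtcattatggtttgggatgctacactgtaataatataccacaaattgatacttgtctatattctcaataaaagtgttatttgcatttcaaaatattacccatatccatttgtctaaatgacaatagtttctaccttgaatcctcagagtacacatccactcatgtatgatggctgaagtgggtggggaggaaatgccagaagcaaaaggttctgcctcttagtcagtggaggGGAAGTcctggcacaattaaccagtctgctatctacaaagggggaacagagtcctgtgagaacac
Plac8, chr5:100572156-100572455, minus strand: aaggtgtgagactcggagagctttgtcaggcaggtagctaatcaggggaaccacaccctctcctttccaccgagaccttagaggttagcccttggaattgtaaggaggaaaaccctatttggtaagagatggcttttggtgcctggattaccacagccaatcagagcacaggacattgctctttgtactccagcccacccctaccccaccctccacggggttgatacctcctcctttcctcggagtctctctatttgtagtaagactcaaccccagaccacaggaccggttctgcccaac
The Ly6c2 window held the core 2 times, the Ms4a4c window 1 time and the Plac8 window 0 times. Of 32851 such windows over the genome's promoters, 23.8% held it. A match is a description of the letters, not a bound site. Ly6c2 (ENSMUSG00000022584) spans 75108158 to 75111970 on chromosome 15 of GRCm38, Ms4a4c (ENSMUSG00000024675) spans 11404770 to 11427246 on chromosome 19 and Plac8 (ENSMUSG00000029322) spans 100553725 to 100572245 on chromosome 5. Ly6c1, the neighbouring copy of Ly6c2, shared 167 of the 2737 windows of 98 bases (6.10%) in Ly6c2 transcripts. A read from such a window could not tell the copies apart. The share of reads that fell in these windows was not measured.

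The selected cells numbered 260 in the young male library, 59 in the young female, 99 and 12 in the middle-aged libraries labelled male and female, 37 in the aged male and 30 in the aged female. As a share of kept barcodes this was 3.16% (exact 95% binomial interval 2.79 to 3.56), 1.31% (1.00 to 1.69), 1.56% (1.27 to 1.89), 1.20% (0.622 to 2.09), 1.24% (0.875 to 1.71) and 2.11% (1.43 to 3.0). These intervals cover counting error only. The young male library was highest, and the young female library lay below the aged female one, so the ages overlapped. The aged mean was 1.68% ± 0.617 (SD, n = 2) against 2.24% ± 1.31 (SD, n = 2) in young, a difference of -0.559 percentage points (exact permutation test, two-sided, p = 0.667). The exact permutation test of 2 against 2 libraries cannot go below p = 0.333, and without the young male library the difference was 0.365, in the opposite direction. Per selected cell plus C1q-positive macrophage the shares were 13.3%, 5.98%, 5.61%, 11.8%, 5.87% and 7.73%, in the same order.

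**Figure D1:**
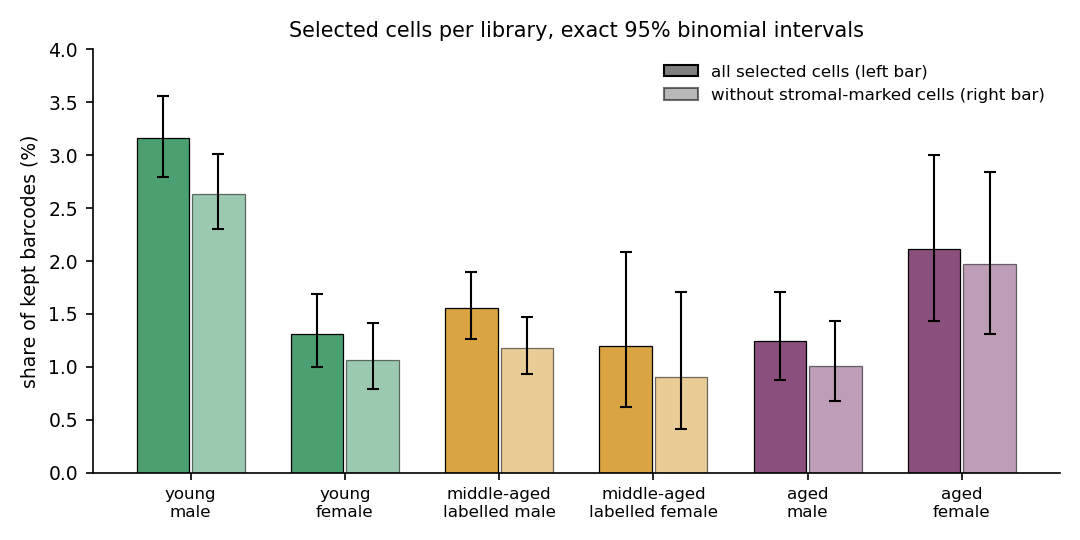
Share of kept barcodes (%) that were selected, by library, with exact 95% binomial intervals. Left bars count all selected cells and right bars leave out those rich in stromal transcripts; the young male library is highest at 3.16% and the other 5 lie between 1.20% and 2.11%.

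Many cells lay near the limits of the rule. At the marker minimum, 112 selected cells had exactly 2 UMIs of the 3 markers, and 226 cells met every other condition with 1. At the C1q limit, 16 selected cells had 2 UMIs and 15 cells just outside had 3, while 806 cells in all failed on C1q alone. For Lyz2 and Ctss, 71 selected cells had 2 UMIs and 427 cells outside had 1. Median depth of the selected cells was 2111, 3130, 2505, 8492.5, 4469 and 3773 UMIs in the library order above, and thinning every barcode to 1000 UMIs left 254 selected cells.

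The gene that gives Ly6c2 monocytes their name was found in a minority of the selected cells. Plac8 was found in 426 of the 497 (85.7%), Ms4a4c in 252 (50.7%) and Ly6c2 itself in 161 (32.4%). All 3 were found together in 79 cells, while 171 (34.4%) were selected by Plac8 alone. Plac8 was also found in 71.4% of 12444 unselected barcodes with at least 8 UMIs of the fibroblast markers, which are Col1a1, Col1a2, Col3a1, Dcn, Lum, Pdgfra, Gsn, Serpinf1, Dpt and Fbln1. There Ly6c2 was found in 0.257% and Ms4a4c in 0.104%. With every barcode thinned to 1000 UMIs, Plac8 remained in 44.3% of those fibroblast-marked barcodes against 66.2% of selected cells, and Ly6c2 stood at 0.0653% against 23.5%. Barcodes of at most 50 UMIs, a measure of free RNA, held 158 to 585 CPM of Plac8, 6.43 to 16.9 CPM of Ly6c2 and 4.02 to 14.9 CPM of Ms4a4c per library.

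A distinct set of the selected cells carried stromal transcripts. With at least 8 UMIs of the fibroblast, endothelial, smooth muscle or epithelial markers, 90 cells (18.1%) were stromal-marked, of which 85 passed on the fibroblast list. These 90 had a median of 155 fibroblast UMIs (range 1 to 707), the other 407 had a median of 1 (range 0 to 6), and only 5 of all selected cells had 4 to 7. In library order they numbered 43, 11, 24, 3, 7 and 2, yet they held 31.5%, 30.7%, 46.4%, 39.9%, 20.5% and 56.8% of the UMIs of all selected cells. In the aged female library 2 such cells gave 132161 of 232631 UMIs. The pan-leukocyte gene Ptprc was found in 45.6% of the stromal-marked cells and in 78.4% of the others, and Ly6c2 in 10.0% and 37.3%. Their median depth was 5220 UMIs against 2206. Scrublet, a doublet caller, marked 44 selected cells, and every one of them was stromal-marked. Results are therefore given with and without these 90 cells, a split chosen after the data had been seen.

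**Figure D2:**
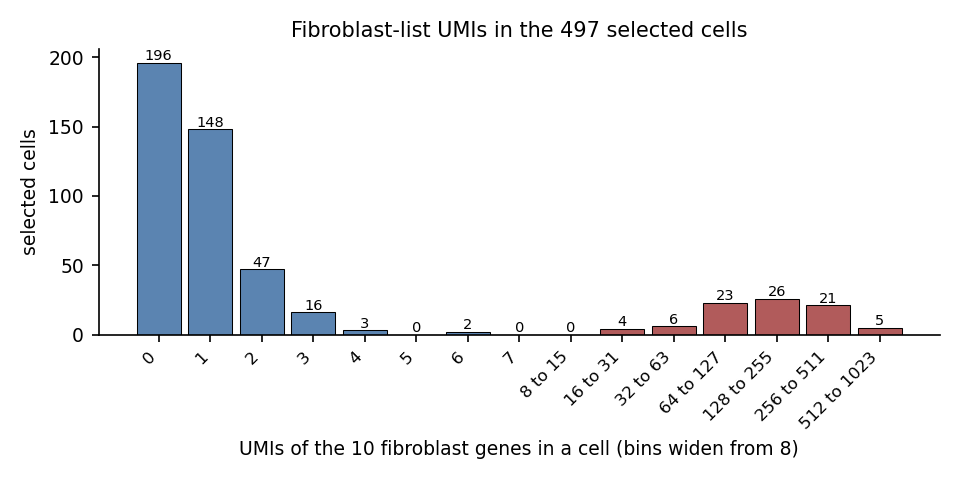
Number of selected cells (vertical axis) by their UMIs of the 10 fibroblast markers (horizontal axis, bins widening from 8). Blue bars are below 8 UMIs and red bars at or above it; 196 cells had 0 and no cell had 5, 7 or 8 to 15.

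The 407 remaining cells were themselves a mixture, described by 4 groups that were also drawn after the data had been seen and are not tested. Of these, 215 (52.8%) were dendritic-marked, with at least 3 UMIs of the plasmacytoid, cDC1, cDC2 and migratory dendritic marker lists. A further 32 (7.86%) were Treml4-Ace-marked, with fewer dendritic UMIs and at least 2 UMIs of Treml4, Ace, Adgre4, Spn, Eno3, Pglyrp1, Fcgr4 and Cd300e, genes of patrolling monocytes. The next 84 (20.6%) were in neither group and held Ly6c2, and the last 76 (18.7%) met none of these conditions. Both limits cut through a continuous range: 34 cells lay at 2 and 42 at 3 dendritic UMIs, and 32 lay at 1 and 12 at 2 UMIs of the Treml4-Ace genes.

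Monocyte transcripts were highest outside the dendritic-marked group. Pooled over libraries, the Ly6c2-detected cells had 13742 CPM of Lyz2 (lysozyme), 1043 CPM of Ccr2 and 2118 CPM of the matrix glycoprotein gene Thbs1. Dendritic-marked cells had 3599, 590 and 342 CPM of these genes, and macrophages 6105, 155 and 70.5 CPM. Chil3, which codes for a chitinase-like protein of classical monocytes, had 229 CPM in Ly6c2-detected cells, 203 in Treml4-Ace-marked, 285 in the last group and 12.7 in dendritic-marked cells. Haptoglobin (Hp) had 337, 338, 97.4 and 38.0 CPM in the same order.

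The Treml4-Ace-marked cells had the highest level, among the groups of selected cells, of several genes that did not define them. The integrin gene Itgal stood at 636 CPM against 140 in Ly6c2-detected and 61.9 in dendritic-marked cells. The fractalkine receptor gene Cx3cr1 stood at 230 CPM against 95.4 and 31.0, the CSF1 receptor gene Csf1r at 757 against 394 and 95.7, and the scavenger receptor gene Cd36 at 582 against 50.9 and 39.4. Ly6c2 was not absent from them, at 893 CPM. Cells with 3 or more dendritic UMIs could not enter the group, and Cd209a, Flt3, Siglech and Ccr7 had 0 UMIs in it.

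Dendritic-marked cells held the antigen-presenting transcripts. The MHC class II gene H2-Ab1 had 7586 CPM there, 5865 in the last group, 2773 in Ly6c2-detected and 1772 in Treml4-Ace-marked cells, and macrophages had 2175. Its invariant chain Cd74 had 17284, 12053, 8896, 4868 and 6696 CPM in the same order. Of the genes that placed the cells in the group, Cd209a had 570 CPM, Ccr7 (the receptor that guides dendritic cells to lymph nodes) 131, Flt3 94.3 and Siglech 73.2. The NK receptor gene Klrd1 and the lysophospholipid receptor gene P2ry10, which did not, had 184 and 174 CPM there and at most 52.4 and 44.9 CPM in any other group. The proliferation gene Mki67 had 108 CPM in dendritic-marked cells, 52.4 in the last group and 0 in both Ly6c2-detected and Treml4-Ace-marked cells. The stromal-marked cells had 3480 CPM of Col1a1 and 4477 of Dcn, where the 4 groups had 9.84 to 44.9 and 13.5 to 37.5. Both genes are on the fibroblast list that set these cells apart, so the split itself made this difference.

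**Figure D3:**
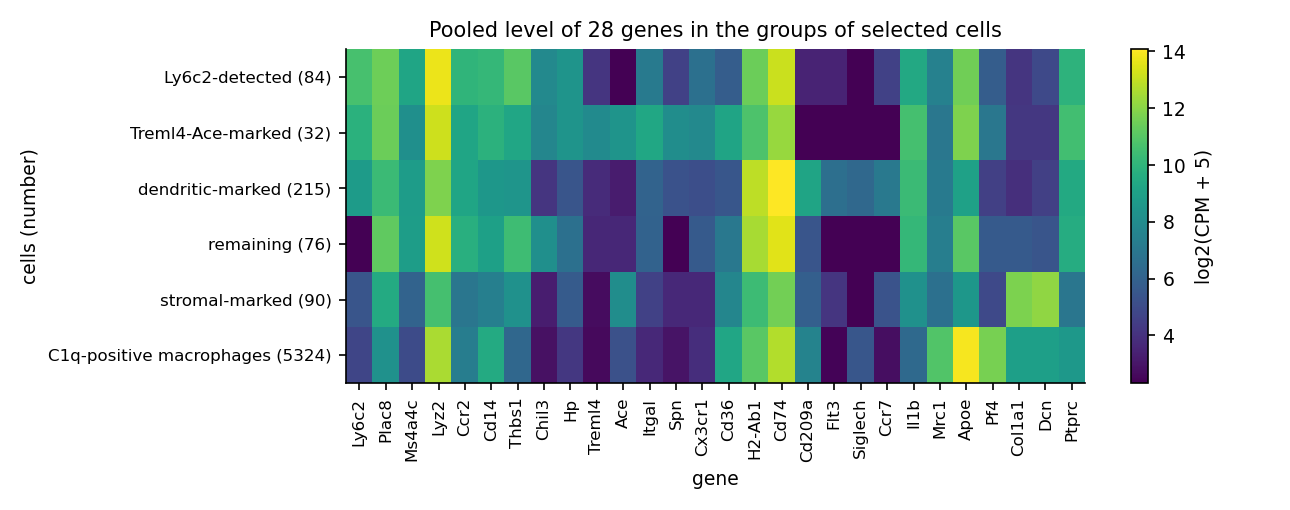
Pooled level, log2(CPM + 5) by colour, of 28 genes (columns) in the groups of selected cells and in C1q-positive macrophages (rows, with cell numbers). Among the selected cells, Treml4-Ace-marked ones stand out for Itgal (636 CPM) and Cd36 (582 CPM) and dendritic-marked cells for H2-Ab1 (7586 CPM). Stromal-marked cells had 3480 CPM of Col1a1, a gene of the list that defined them.

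The makeup of the 407 cells differed between libraries. Treml4-Ace-marked cells were 10 of 217 in young male (4.61%, exact 95% interval 2.23 to 8.31), 3 of 48 in young female (6.25%, 1.31 to 17.2), 1 of 75 (1.33%) and 1 of 9 (11.1%) in the middle-aged libraries labelled male and female, 9 of 30 in aged male (30%, 14.7 to 49.4) and 8 of 28 in aged female (28.6%, 13.2 to 48.7). Both aged libraries lay above the other 4. Aged cells were deeper than young ones, so more could reach 2 UMIs. At 1000 UMIs per cell the shares were 1.48% and 4.17% in the young libraries and 26.7% and 18.5% in the aged ones. Ly6c2-detected cells were 26.7%, 10.4%, 18.7%, 11.1%, 10.0% and 10.7%, highest in the young male library, and 29.6%, 14.6%, 17.6%, 10.0%, 10.0% and 18.5% at 1000 UMIs. Dendritic-marked cells were 45.6%, 77.1%, 53.3%, 77.8%, 56.7% and 53.6%, and the young and aged libraries overlapped, as they did at 1000 UMIs (23.2%, 31.2%, 27.0%, 10.0%, 30% and 14.8%).

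Against C1q-positive macrophages the selected cells lacked the tissue macrophage program and held genes of monocytes and dendritic cells. UMIs were summed per library, and the 5 libraries with at least 20 selected cells were used, which leaves out the labelled middle-aged female. Of 8384 genes, 133 (1.59%) were at least 2-fold higher and 294 (3.51%) at least 2-fold lower in every library. Without stromal-marked cells these were 198 (2.54%) and 421 (5.41%) of 7784. The rule made this contrast, so nothing is read from these shares, and the genes of the rule were left out.

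Genes of resident macrophages were the lowest. The chemokine gene Pf4 had 52.2 CPM in young male, 4.54 in young female, 41.5 in labelled middle-aged male, 19.1 in aged male and 0 in aged female selected cells. In macrophages it had 2483, 2977, 3595, 4800 and 2484 CPM, a median log2 ratio of -7.64 on the scale of CPM + 5 used for all ratios here. Every library thus separated the cell classes for Pf4, with no overlap. The folate receptor gene Folr2 (-7.62), the lectin genes Cd209f (-7.54) and Cd209g (-5.40), the hyaluronan receptor gene Lyve1 (-6.50) and the ficolin gene Fcna (-6.17) were lower to a like degree. So were the chemokine genes Ccl24 (-6.81) and Ccl8 (-6.29), the carbonyl reductase gene Cbr2 (-5.88) and the secreted phospholipase gene Pla2g2d (-5.34). Of 36 measured genes on the macrophage differentiation list, 28 were lower and 0 higher, with a median of -3.38. Over all features 3.51% were lower and 1.59% higher, with a median of -0.01, in a contrast that the rule made.

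Among the higher genes, Napsa, which codes for the aspartic protease napsin A, had 367 CPM in young male, 205 in young female, 201 in labelled middle-aged male, 197 in aged male and 159 in aged female. Macrophages had 3.92 to 19.5 CPM of Napsa, and the median log2 ratio was 3.98. The inflammatory cytokine gene Il1b had 880, 573, 983, 1304 and 365 CPM against 34 to 95.9 in macrophages (3.18), lowest in the aged female and highest in the aged male library. Thbs1 had 460, 450, 938, 471 and 344 CPM against 11.2 to 125 (3.12). Klrd1 (3.66), Ccr7 (3.49), P2ry10 (3.38), Flt3 (3.36), the gut-homing integrin gene Itgb7 (3.12) and the G protein-coupled receptor genes Gpr141 (3.13) and Gpr171 (3.07) completed the 10 highest. Of these 10, Klrd1, P2ry10, Gpr171, Napsa and Itgb7 had their highest pooled level in dendritic-marked cells. Napsa (412 CPM there, 379 in Treml4-Ace-marked cells) and Itgb7 (183 there, 165 in the last group) were highest by little. Flt3 and Ccr7 were highest there too, but both are among the genes that defined the group.

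**Figure D4:**
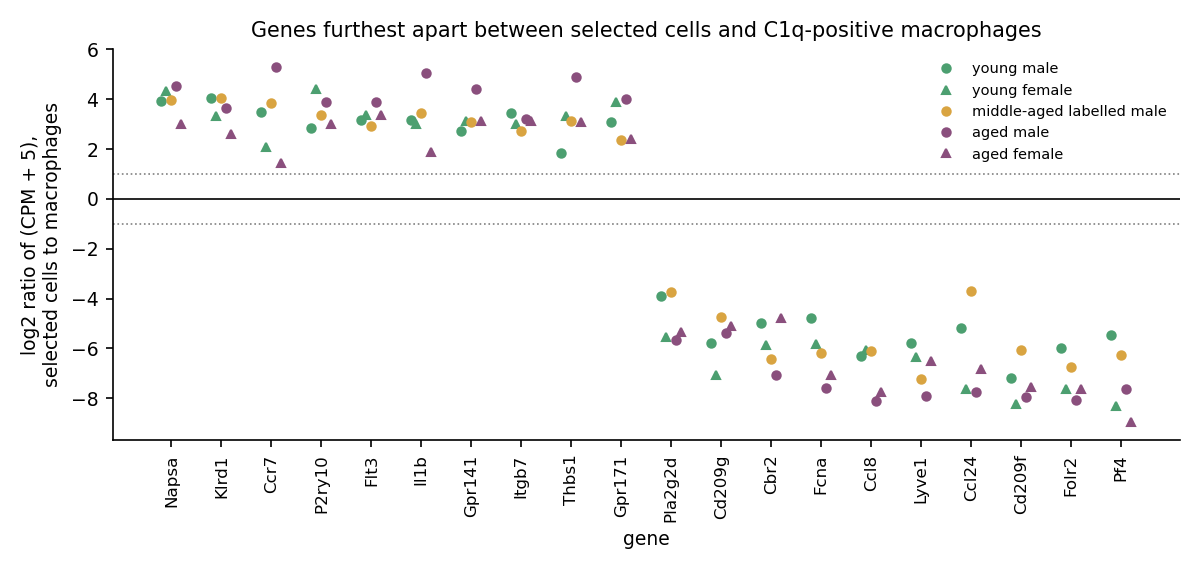
Log2 ratio of (CPM + 5) of selected cells to C1q-positive macrophages for the 10 genes furthest apart in each direction, one point per library. Dotted lines mark 2-fold; each of the 20 genes lies beyond them in all 5 libraries, from Napsa (median 3.98) to Pf4 (median -7.64).

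The lists of monocyte genes were mixed. Of 31 measured classical monocyte genes, 8 were higher and 4 lower, with a median of 0.41. Over all genes 1.59% were higher and 3.51% lower, with a median of -0.01, or 2.54% and 5.41% without stromal-marked cells. The rule made this contrast, so nothing is read from the counts beside these shares. The higher ones included Thbs1 (3.12), Chil3 (2.75), the clotting factor gene F10 (2.56), Hp (2.47), Sirpb1c (2.36), the proteoglycan gene Vcan (2.25) and the glutathione reductase gene Gsr (1.31). The lower ones were Ccl6 (-2.27), Ccl9 (-1.81), Csf1r (-2.08) and the clotting factor gene F13a1 (-3.43), which macrophages also express. Without stromal-marked cells 8 were higher and 2 lower (median 0.49), and Gsr (1.96), Ccl9 (-1.23) and Csf1r (-1.89) were no longer 2-fold apart in every library. Ccr2 had 525, 336, 443, 458 and 593 CPM against 210, 197, 74.6, 77.8 and 242 in macrophages, so it was above its own library's macrophages in all 5, at a median of 1.31 that did not reach 2-fold everywhere. Without stromal-marked cells its median was 2.00 and it did. Of 18 measured non-classical monocyte genes, 4 were higher (Itgal 2.43, Pglyrp1 1.94, the signalling adaptor gene Stap1 1.94 and the sialophorin gene Spn 1.63) and 1, Cd36 (-2.33), was lower, with a median of 1.15.

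Receptor and effector lists are given beside the shares over all genes, 1.59% higher and 3.51% lower with a median of -0.01, from which nothing is read since the rule made the contrast. Of 13 chemoattractant receptor genes, Ccr7 (3.49) and the leukotriene receptor gene Ltb4r1 (2.55) were higher, and Ccr1 (-2.44), S1pr1 (-3.22) and the complement receptor genes C5ar1 (-3.45) and C3ar1 (-3.93) were lower. Without stromal-marked cells Ccr1 (-2.14) was no longer called, and Ccr2 (2.00) and Cx3cr1 (2.10) were higher. Of 17 chemokine ligand genes, 9 were lower and 0 higher, with a median of -1.49, and of 28 lysosome and lipid handling genes, 13 were lower and 0 higher, with a median of -1.47. Of 32 adhesion and migration genes, 7 were higher and 1 lower (median 0.89), and without stromal-marked cells 12 of 31 were higher and 1 lower. Of 13 MHC class II genes, 1 was higher and 0 lower, with a median of 0.84. Complement C3 shows what the stromal-marked cells add: it had 1984 CPM in them and 33.8 to 159 CPM in the 4 groups. Apart from macrophages, 18667 other kept barcodes held Ccr2 in 6.01% of cells, against 61.0% of selected cells and 16.3% of macrophages, at median depths of 3130, 2480 and 2329.5 UMIs.

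The age contrast of all selected cells included collagen and milk protein genes. By edgeR's quasi-likelihood test with age and labelled sex (5 sums, without the labelled middle-aged female), 25 of 4694 genes (0.533%) rose and 40 (0.852%) fell in aged against young. At an unadjusted p under 0.05 there were 380 genes. With 1 residual degree of freedom, a gene's own spread between libraries was hardly measured. The test took most of that spread from other genes, so a small p-value does not measure it for that gene.

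The genes that fell in all selected cells included those of fibroblasts: the collagen gene Col3a1 had 4908 normalised CPM in young male, 1519 in young female, 894 in labelled middle-aged male, 141 in aged male and 74.4 in aged female (log2 change -4.75, SE 0.50, adjusted p = 5.21e-10). The matrix gene Postn (-6.08) and the lipid carrier gene Apod (-4.67) fell as well. Among the genes that rose were the milk protein genes Csn2, Csn1s1, Csn1s2a and Csn3, and 1003 of the 1006 Csn2 UMIs of the aged female library lay in 1 stromal-marked cell. Apoc1, an apolipoprotein gene (5.46), the epithelial factor gene Ehf (3.49), the ceruloplasmin gene Cp (3.12), the cystine transporter gene Slc7a11 (2.27), the acyl-CoA ligase gene Acsl1 (2.23) and the developmental factor gene Sox4 (2.09) were the other named ones that rose. In the aged female library the cell with most UMIs of a gene held 28 of 30 of Apoc1, 38 of 38 of Ehf, 50 of 50 of Cp, 37 of 40 of Acsl1 and 101 of 103 of Sox4. Without the stromal-marked cells that library had 2, 0, 0, 3 and 2 UMIs of these genes. Without stromal-marked cells, 17 of the 25 and 28 of the 40 genes were too low to be tested.

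Without stromal-marked cells, 11 of 3166 genes (0.347%) rose and 6 (0.19%) fell, and 224 had an unadjusted p under 0.05. They shared 7 risen genes with the fit of all selected cells (28% of 25 and 63.6% of 11) and 5 fallen ones (12.5% of 40 and 83.3% of 6). In such sums, more cells of a kind and more RNA per cell cannot be told apart.

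Of 24 tested genes on the heme, iron and oxidative stress list, 3 rose with age, where 0.347% of all 3166 features rose: Slc7a11, Hmox1 and Gsr. Slc7a11, which imports cystine for glutathione, had 34.9 CPM in young male, 32.8 in young female, 357 and 340 in the middle-aged libraries labelled male and female, 312 in aged male and 139 in aged female cells. Both young libraries lay below the other 4. Its log2 change from young to aged was 2.68 (SE 0.54, edgeR adjusted p = 0.000355). Macrophages without stromal-marked cells had 11.7, 3.10, 47.7, 46.3, 25.6 and 60.7 CPM of Slc7a11 in the same order. With all cells, the macrophage change was 2.67 (edgeR adjusted p = 0.591). The change of Slc7a11 in selected cells beyond that in macrophages was 0.19 without stromal-marked cells and did not pass. The heme oxygenase gene Hmox1 had 98.1, 39.4, 244, 184, 496 and 239 CPM in the same library order (2.32, SE 0.48, adjusted p = 0.000511), again lowest in the young. Single cells gave 39 of the 62 aged male UMIs of Hmox1 and 19 of the 24 aged female ones, and 19 of the 39 aged male UMIs of Slc7a11. Gsr, which regenerates reduced glutathione, was spread over more cells, with 26 UMIs in 12 aged male and 19 in 13 aged female cells. Its levels were 58.8, 19.7, 179, 439, 208 and 189 CPM (2.16, SE 0.53, adjusted p = 0.0113), without overlap of young and aged. Of the list, 0 genes fell and 17 lay above 0. Its median was 0.20, and 49.8% of all 3166 features lay above 0, with a median of 0.00.

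Most tested monocyte genes of both kinds had a log2 change above 0 from young to aged, and few passed the test. F10 had 28.3, 39.4, 101, 184, 104 and 249 CPM (2.10, SE 0.55, adjusted p = 0.0334), and Gsr stands on the same classical list. These were 2 of 30 tested classical genes, of which 0 fell and 24 lay above 0 (median 0.59). Over all 3166 features, 0.347% rose, 0.19% fell and 49.8% lay above 0 (median -0.003). Ccr2, with 697, 479, 631, 453, 576 and 1374 CPM, and Thbs1, with 582, 453, 1566, 976, 584 and 657 CPM, overlapped between ages (log2 changes of 0.49 and 0.14, neither past the threshold). Cd36 had 39.2, 52.5, 101, 70.7, 264 and 149 CPM (2.13, SE 0.53, adjusted p = 0.0122), the 1 gene of 17 on the non-classical list that rose. All 17 lay above 0, with a median of 1.08. Those past no threshold included Ace (3.01, SE 1.07, adjusted p = 0.315), Treml4 (2.54, adjusted p = 0.725), Pglyrp1 (2.41, adjusted p = 0.352), Spn (1.64, adjusted p = 0.701) and Itgal (1.22, adjusted p = 0.496). Ace, Treml4, Pglyrp1 and Spn are also among the genes that defined the Treml4-Ace-marked group, whose share was higher in both aged libraries. The direction of this list is thus not separate from that share. Ace had 8.72 and 13.1 CPM in young male and female against 72.0 and 139 in aged, and Treml4 had 4.36 and 19.7 against 72.0 and 49.8. Macrophages without stromal-marked cells had 6.80 and 5.04 CPM of F10 in young against 6.16 and 18.6 in aged. Their Cd36 stood at 330 and 312 CPM in young against 1036 and 569 in aged. The changes of F10 and Cd36 in selected cells beyond those in macrophages (1.21 and 0.66) did not pass.

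The groups of selected cells differed in these genes. In pooled Treml4-Ace-marked cells, whose share was higher in both aged libraries, Slc7a11 had 527 CPM, Gsr 460, F10 284 and Cd36 582. Ly6c2-detected cells had 203, 248, 184 and 50.9 CPM of these genes, and dendritic-marked cells 91.5, 64.7, 39.4 and 39.4. The labelled middle-aged male library had 1 Treml4-Ace-marked cell of 75, and its 357 CPM of Slc7a11 was the highest of the 6 libraries. The part of the makeup in the age changes was not tested.

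Of 12 tested cell cycle genes, 4 fell with age (Pclaf, Ube2c, Stmn1 and Tubb5) and 0 rose, and Hist1h1b, which is not on that list, fell as well. Over all 3166 features, 0.19% fell and 0.347% rose. The linker histone gene Hist1h1b, made in S phase, had 235 CPM in young male and 217 in young female cells, 11.9 in the labelled middle-aged male and 0 UMIs in the labelled middle-aged female and both aged libraries. With 141 young UMIs and none in aged, it was at least 17.3-fold lower in aged (floor of 3 UMIs over the aged cells, adjusted p = 1.01e-09). In the young female library 33 UMIs lay in 2 cells, and in the young male 108 lay in 18. The replication factor gene Pclaf was at least 7.01-fold lower (57 UMIs against 0, adjusted p = 0.000467) and the ubiquitin ligase gene Ube2c at least 6.02-fold lower (49 against 0, adjusted p = 0.0470). Stmn1, a microtubule regulator, had 268, 203, 119, 14.1, 72.0 and 29.9 CPM (log2 change -2.30, SE 0.54, adjusted p = 0.00664). Tubb5, a tubulin, had 471, 387, 220, 42.4, 168 and 119 CPM (-1.70, SE 0.45, adjusted p = 0.0376). Both had each young library above each other library. In pooled dendritic-marked cells Hist1h1b had 180 CPM, Pclaf 95.7, Ube2c 74.6, Stmn1 217 and Tubb5 394. Ly6c2-detected cells had 6.36, 0, 0, 25.4 and 178 CPM of these genes. Treml4-Ace-marked cells had 0, 0, 0, 40.6 and 94.7 CPM, and the last group 105, 22.5, 7.49, 195 and 247. The part of the makeup in these falls was not tested. The proliferation marker Mki67 overlapped, with 93.7, 112, 47.6, 14.1, 104 and 19.9 CPM (-0.77, adjusted p = 0.853), and 7 of the 13 aged male UMIs lay in 1 cell. Of the 12 genes on the list 1 lay above 0, and their median was -2.0, or -1.63 with genes at 0 taken at their bound. Over all features 49.8% lay above 0, with a median of -0.003. The lectin gene Siglech of plasmacytoid dendritic cells fell (-3.91, SE 0.95, adjusted p = 0.0111). It had 19.6, 249, 17.9, 0, 0 and 19.9 CPM, and the young female value came from 38 UMIs in 5 cells.

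The other 6 genes that rose were the immunoglobulin and plasma cell genes Igkc, Iglc3, Iglv1, Jchain and Mzb1 and the globin gene Hbb-bs, named after their values were seen. In the aged male library every UMI of Igkc (51), Iglc3 (854), Iglv1 (120), Jchain (108) and Mzb1 (37) lay in 1 cell.

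The calls depended on single libraries. Without stromal-marked cells and without a sex term, 13 genes rose and 8 fell; leaving out the labelled middle-aged male gave 0 and 1, and leaving out the aged male or the aged female gave 0 and 0. With all selected cells, edgeR without a sex term gave 0 and 0 (263 genes at an unadjusted p under 0.05) and DESeq2 1 and 5.

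**Figure D5:**
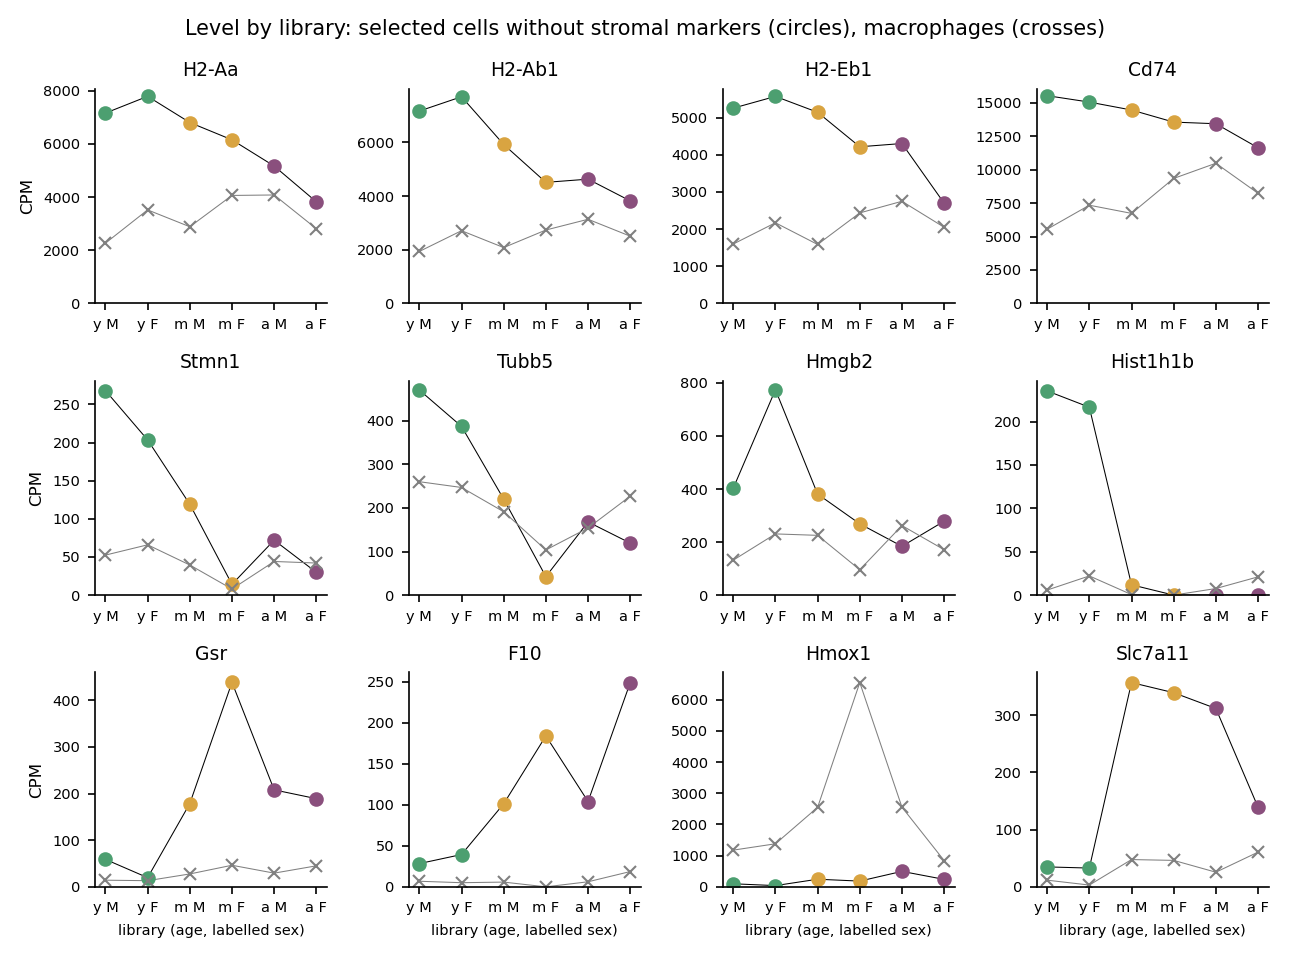
CPM (vertical axes) of 12 genes in the 6 libraries, ordered y M, y F, m M, m F, a M, a F for young, middle-aged and aged by labelled sex, without stromal-marked cells. Circles are selected cells and crosses C1q-positive macrophages, with lines only to join them; Slc7a11 is below 35 CPM in both young circles and at 139 to 357 in the other 4, and Hist1h1b is at 235 and 217 in young and 0 in both aged circles.

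The middle-aged contrasts rest on 1 library, which went against its sex label. That lone sum is assumed to vary like the young and aged ones, which alone give the spread behind the p-values and SEs here. Against young, 27 of 4694 genes (0.575%) were higher and 10 (0.213%) lower in the edgeR fit, and without stromal-marked cells 5 (0.158%) and 2 (0.0632%). In all selected cells, Xist (11.59) and Ddx3y (-7.62) marked the mismatch of sex, and the epithelial genes Krt8 (6.80) and Epcam (9.36) were among the higher. Slc7a11 was higher (2.58, SE 0.57, adjusted p = 0.00693) and Hist1h1b lower (-4.73, SE 0.86, adjusted p = 0.000361). The resistin-like gene Retnla was higher (4.63, SE 0.69, adjusted p = 4.85e-06), as was the eosinophil-associated ribonuclease gene Ear2 (3.4). Aged against middle-aged gave 6 higher (0.128%) and 31 lower (0.66%), with Retnla (-7.32) and Ear2 (-3.12) among the lower, and without stromal-marked cells 5 (0.158%) and 4 (0.126%).

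Retnla shows how far this library stood apart. In all selected cells it had 124 CPM in young male, 1018 in young female, 4537 and 8.5 in the middle-aged libraries labelled male and female, 57.3 in aged male and 68.8 in aged female. Leaving out stromal-marked cells gave 32.7, 899, 2620, 14.1, 56.0 and 159 CPM, and 1 young female cell held 124 of that library's 137 UMIs. Macrophages without stromal-marked cells had 4769, 22307, 28444, 18234, 23627 and 24914 CPM.

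C1q-positive macrophages of the same libraries showed no gene past the threshold with age (edgeR, 0 of 11368, with 467 at an unadjusted p under 0.05; without stromal-marked cells 0 of 10289, with 352). A test of the difference between the classes, with library as a block, found that 15 of 11193 genes (0.134%) changed upwards and 38 (0.339%) downwards in selected cells relative to macrophages. Without stromal-marked cells of either class these were 9 of 9684 (0.0929%) and 11 (0.114%).

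Of 13 tested MHC class II genes, 3 fell relative to macrophages with age, 0 rose and 10 did not pass. Without stromal-marked cells, 0.114% of all 9684 genes fell in this way and 0.0929% rose. Without stromal-marked cells H2-Ab1 had 7171, 7704, 5924, 4513, 4631 and 3822 CPM in selected cells, where both young libraries were highest. In macrophages H2-Ab1 had 1937, 2710, 2081, 2736, 3136 and 2506 CPM. The class difference of its age change was -1.36 (SE 0.31, edgeR adjusted p = 0.0112), while the change within selected cells did not pass (-0.95, SE 0.62, adjusted p = 0.819). H2-Aa (-1.26, adjusted p = 0.0346) and H2-Eb1 (-1.26, adjusted p = 0.0410) also fell relative to macrophages. The median of the 13 genes was -1.08, where that of all features was -0.16. With all cells H2-Ab1, H2-Aa and H2-Eb1 passed too, and over 7 other settings they passed in 4, 3 and 2. Among those settings, leaving out the middle-aged pair and leaving out its labelled male library were the same fit. The labelled middle-aged female was in no sum. Cd74, at 15527, 15048, 14456, 13552, 13430 and 11635 CPM, passed in 0 of 7 other settings. H2-Ab1 had 1772 CPM in Treml4-Ace-marked and 7586 in dendritic-marked cells, and the part of this in the difference was not tested. With all cells, the H2-Ab1 difference (-1.44, adjusted p = 0.0132) lost its call without the young male (-1.12, adjusted p = 0.946), the young female (-1.80, adjusted p = 0.0786) or the aged female library (-1.29, adjusted p = 0.649).

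Cell cycle and dendritic genes made up other class differences. Hist1h1b fell relative to macrophages under all 7 other settings, and Hmgb2, a chromatin protein of dividing cells, fell by 1.83 on the log2 scale (adjusted p = 0.0112). Selected cells had 403, 774, 381, 269, 184 and 279 CPM of Hmgb2 and macrophages 132, 231, 225, 95.7, 262 and 171, so selected cells lay above the macrophages of their own library in every library but the aged male. Siglech fell relative to macrophages by 4.04 (adjusted p = 0.00460). Ccr7 passed the class difference (adjusted p = 0.0410), but aged macrophages held 0 UMIs of it, so the fitted value is no bound. Its change within selected cells did not pass (0.96, adjusted p = 0.806), and 29 of the 30 aged male UMIs lay in 1 cell. Hmox1 changed upwards relative to macrophages by 1.68 without stromal-marked cells (adjusted p = 0.0410) and did not pass with all cells (1.42, adjusted p = 0.139), and macrophages held 1177, 1380, 2548, 6550, 2555 and 843 CPM of it, above the selected cells in every library.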

How the data were processed

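Droplet single-cell RNA libraries were made from 6 samples, 1 per age and labelled sex. The deposited counts are raw UMI counts per gene and barcode, which the authors made with Cell Ranger 3.0.2 on mm10 (Seurat is also named), per the submitters' processing notes. Each library lists all barcodes, 31053 gene IDs were summed to 31017 symbols, and totals ran from 9616652 to 28921825 UMIs. The labels name v2 chemistry, while each library lists 6794880 barcodes, the size of the v3 barcode list. Which chemistry was used is not settled here. Doublets were marked with Scrublet (scanpy 1.11.5, expected 6%) but not removed, and whether the authors removed any is not given in the sources used here.

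UMIs of selected cells were summed per library. Sums of at least 20 cells were tested with edgeR 4.0.16 (filterByExpr, TMM, quasi-likelihood F test, age plus labelled sex, Benjamini-Hochberg adjusted p threshold 0.05) in R 4.3.3. This leaves 5 sums, since the labelled middle-aged female library had 12 selected cells, and 1 residual degree of freedom. Normalised CPM used TMM library sizes. The class contrast took genes of at least 10 CPM in either class, log2(CPM + 5) and a 2-fold difference in every library. DESeq2 1.42.0 was an alternative. Shares used an exact permutation test and exact (Clopper-Pearson) intervals at 95%. On simulated counts for 4206 genes of aged against young, the fit recovered 41 of 100 genes changed by 2 on the log2 scale. It recovered 0 of 100 changed by 1, with 0 false calls. The number of false calls among genes with most of their UMIs in 1 cell was not tested.

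Named genes were, per direction, up to 6 (age; at least 30 CPM, same direction in both labelled sexes) or 10 (classes; at least 50 CPM) with the largest change, leaving out genes of the selection rule and mitochondrial, ribosomal, globin, immunoglobulin and unnamed genes for their fold, and members of the 19 gene lists. Milk, epithelial, sex-linked and plasma cell genes were named after their values were seen. The members and lists were chosen with earlier results of these data known. Gene positions come from GENCODE M21. One listed gene is not reported here.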

Additional observations from a re-analysis of the deposited data

Results flagged for a closer look

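Each gene here was singled out because its aged against young change was tested to differ between selected cells and C1q-positive macrophages (edgeR, library as a block, adjusted p under 0.05). With all cells, the difference (log2, selected cells minus macrophages) was -10.8156 for Hist1h1b, -9.0228 for Pclaf, -9.0027 for Ube2c, -1.9198 for Stmn1 and -1.811 for Hmgb2, all genes of dividing cells. Hist1h1b, Pclaf and Ube2c had 0 aged UMIs in selected cells, so their fitted values are no bounds. Without stromal-marked cells, Hist1h1b (adjusted p = 3.35e-07) and Hmgb2 (0.0112) passed and Pclaf (0.0773), Ube2c (0.573) and Stmn1 (0.122) did not.

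The MHC class II genes H2-Ab1 (-1.4404), H2-Eb1 (-1.3469) and H2-Aa (-1.3344) were the next, and they passed in 4, 2 and 3 of 7 other settings. In these 7, the fit without the middle-aged pair and that without its labelled male library were the same fit. Siglech stood at -3.8991 and passed in 5 of 7. Retnla stood at -3.648 and passed in 7 of 7 (log2 from -4.07 to -2.50). Without stromal-marked cells it had 32.7 and 899 CPM in young male and female selected cells. The aged male and female had 56.0 and 159 CPM, so the ages overlapped, and most young female UMIs lay in 1 cell. Macrophages had 4769 and 22307 CPM of Retnla in young male and female against 23627 and 24914 in aged. Ccr7 stood at 5.8624 and passed in 3 of 7, but both aged macrophage sums held 0 UMIs of it, so this fitted value is no bound either. Postn (-4.6771) and Cp (2.9981) had adjusted p = 1 without stromal-marked cells.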

How the results depend on the processing

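No paired analysis was possible because the labels number no replicates across the groups, and the columns carry no such number. The 497 selected cells became 254 at 1000 UMIs per barcode and 63 when cells with any UMI of other leukocyte lists were left out; the 5 other membership settings stayed within 1.5 times. The aged minus young difference in share ran from -1.48 to 0.365 percentage points with 1 library left out, and was above 0 without the young male library alone. Against macrophages, leaving out 1 library gave 142 to 212 higher and 322 to 383 lower genes. For all selected cells with age (25 higher, 40 lower), the counts were 0 and 0 without a sex term, 0 and 0 without the middle-aged pair, 0 and 0 with at least 10 cells per sum, and 1 and 5 by DESeq2. Without stromal-marked cells they were 11 and 6, and 13 and 8 without a sex term as well. Leaving out 1 library, over all fits that could be made, gave 0 to 90 higher and 0 to 157 lower genes, the highest without the aged male library. Against young, the middle-aged counts without stromal-marked cells were 5 and 2, and aged against middle-aged had 4 lower. The class difference with age gave 4 higher without the middle-aged pair, 9 higher and 11 lower without stromal-marked cells, and 4 to 28 higher and 5 to 61 lower with 1 library left out. Hist1h1b passed in 15 of 27 settings, Slc7a11 and Hmox1 in 9, Stmn1 in 8, Gsr and F10 in 7, Cd36 in 4 and Tubb5 in 3. These settings are not all separate. Exchanging the middle-aged sex labels repeated the main fit, as did leaving out the labelled middle-aged female with at least 10 cells per sum. Leaving out the middle-aged pair and leaving out its labelled male library were the same fit. With at least 10 cells per sum and without the aged male library, Cd36 was at -0.32 (at most 2.90 over the settings) and Hmox1 at -0.019 (at most 3.11). Without the aged female library, Sox4 was at -0.05 with no sex term and -0.33 with at least 10 cells per sum (at most 3.95). The planned fits that leave out a young or aged library with the sex term had no residual degree of freedom, and the age fit without cells holding UMIs of other leukocytes had too few cells; neither was run. The stromal-marked split, the fits that leave out 1 library without a sex term or with at least 10 cells, and their combinations were chosen after seeing the data. The causes of these changes were not tested. The aged libraries gave 37 and 30 selected cells, and simulated log2 changes of 1 were not recovered at this size.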
